A study of Mus musculus with 4 samples.

Results

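The genes described here are 10 imprinted genes that stand for the major imprinted clusters of the mouse: H19, Igf2, Meg3, Dlk1, Snrpn, Mest, Peg3, Igf2r, Grb10 and Kcnq1. They were chosen by name from what is known of imprinting and not by a rule on their values. Earlier results of these data were known when they were chosen. They are 10 of the 37273 genes in the annotation used, of which 22367 are protein-coding. Each was measured over its annotated span plus 5 kb on either side, called its window, in lists of H3K36me3 regions from ChIP-seq of spermatocytes at 14 days post-partum. The first strain was C57BL/6J (B6), and the second was B6.Cg-Prdm9<tm1.1Kpgn>/Kpgn (KI), which shares the B6 background but carries the zinc fingers of the CAST/EiJ Prdm9 allele in place of its own. PRDM9 is the meiotic histone methyltransferase that chooses recombination hotspots, so the 2 strains use different hotspots. Biological replicates had been merged within each strain before the calls, so every value below is 1 value per strain with no replicate error, and no difference between strains could be tested. The lists give positions only, with no counts or height. By the study's methods the merged KI data held more aligned reads than the merged B6 data, and the part of this in any difference between the strains was not tested.

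Imprinted genes are expressed from 1 parental copy in somatic tissues. In most clusters a CpG-rich control region is methylated on the maternal or the paternal chromosome, and it acts through insulators or through a long noncoding RNA that silences its neighbours. H3K36me3 is laid down by SETD2 over the bodies of transcribed genes behind the elongating polymerase, so that it tends to be low at a start and high towards the 3′ end, and it is laid down by PRDM9 at hotspots. Methylation and the expressed copy were not measured in these spermatocytes. The parental copies named below are background from somatic tissues and not results for these cells. Both strains are inbred, and the lists do not separate the parental chromosomes. They carry no strand either, so a region where genes overlap on opposite strands cannot be given to one of them. In a bulk sample, a region carried by fewer cells and less of the mark per cell cannot be told apart.

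The sequences that mark the best-known control elements among these genes are shown first, since the results return to their places. The 4 sites below are the matches to the CTCF core of the H19 control region, the insulator between H19 and Igf2, with 6 bases on either side. They were read from mm9 on the minus strand, the strand of H19, at chr7:149766208-149766233, chr7:149766663-149766688, chr7:149767689-149767714 and chr7:149767933-149767958. Capitals mark the 14 letters of the core.

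H19 upstream CTCF core 1: acgatgCCGCGTGGTGGCAGtacaat
H19 upstream CTCF core 2: atgctaCCGCGCGGTGGCAGcatact
H19 upstream CTCF core 3: gggttgCCGCACGGCGGCAGtgaagt
H19 upstream CTCF core 4: gagttgCCGCGTGGTGGCAGcaaaat

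The promoters of the 2 antisense RNAs that start inside member genes follow, each from 250 bases before to 50 bases after the start, as RefSeq gives them with the GRCm38.p6 build. Both matched mm9 exactly, Airn at chr17:12933927-12934226 on the plus strand and Kcnq1ot1 at chr7:150482403-150482702 on the minus strand. Capitals mark CpG dinucleotides, of which the Airn promoter held 3 and the Kcnq1ot1 promoter 9.

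Airn promoter: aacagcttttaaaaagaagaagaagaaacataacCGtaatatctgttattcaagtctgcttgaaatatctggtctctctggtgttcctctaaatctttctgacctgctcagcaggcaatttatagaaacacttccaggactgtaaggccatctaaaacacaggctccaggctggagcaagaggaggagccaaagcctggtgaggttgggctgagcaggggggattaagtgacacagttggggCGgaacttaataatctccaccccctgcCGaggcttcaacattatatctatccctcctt
Kcnq1ot1 promoter: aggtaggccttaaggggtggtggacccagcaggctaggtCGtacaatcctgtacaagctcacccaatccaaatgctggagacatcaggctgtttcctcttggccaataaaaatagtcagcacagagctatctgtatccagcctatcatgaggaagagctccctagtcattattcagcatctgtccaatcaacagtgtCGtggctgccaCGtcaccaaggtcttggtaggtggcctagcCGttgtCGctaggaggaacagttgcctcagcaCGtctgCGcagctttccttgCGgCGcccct

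The promoter shared by Snrpn and Snurf (chr7:67150036-67150335, minus strand) and a promoter of Mest (chr6:30687800-30688099, plus strand) are shown because they hold the hexamer TGCCGC, the letters that the zinc finger protein ZFP57 recognises when it protects imprints. Capitals mark the hexamer, which lies here on the opposite strand.

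Snurf and Snrpn promoter: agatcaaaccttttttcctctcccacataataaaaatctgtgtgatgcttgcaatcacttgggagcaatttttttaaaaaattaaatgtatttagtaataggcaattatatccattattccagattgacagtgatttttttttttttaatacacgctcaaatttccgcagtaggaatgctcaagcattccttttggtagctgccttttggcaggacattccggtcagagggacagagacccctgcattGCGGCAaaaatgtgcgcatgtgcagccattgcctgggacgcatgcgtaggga
Mest promoter: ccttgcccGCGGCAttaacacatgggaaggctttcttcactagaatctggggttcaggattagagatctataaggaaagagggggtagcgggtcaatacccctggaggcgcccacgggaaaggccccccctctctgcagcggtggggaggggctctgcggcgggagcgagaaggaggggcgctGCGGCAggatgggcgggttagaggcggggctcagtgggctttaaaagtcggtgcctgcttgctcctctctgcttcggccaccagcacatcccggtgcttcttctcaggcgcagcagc

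In all, 21 RefSeq promoters of 8 members and their partners Airn, Kcnq1ot1 and Snurf matched mm9. Searched on both strands, 7 of the 21 held the hexamer, and of the 32851 RefSeq promoters of this length that were searched 11.6% did. Several of the 21 overlap each other. Counted as 19 distinct promoters, 5 held it, and they belong to Grb10, Igf2, Meg3, Mest and the shared Snrpn and Snurf promoter. A match is a description of the letters and not a binding site.

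Across the 10 windows, broad regions covered 278.643 kb of 884.295 kb in B6 and 255.729 kb in KI, which is 31.5% and 28.9%. Summed over all annotated genes the same shares were 34.1% and 31.8%. The median member window was 20.1% covered in B6 and 18.5% in KI, against 26.4% and 23.6% for protein-coding genes and 7.58% and 9.08% for all annotated genes. The members therefore spread on either side of the ordinary protein-coding gene. They ran from Igf2r, at 90.5% in B6 and 78.9% in KI, to Dlk1, at 0 in both strains.

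At least 50% of the window was covered in both strains for 2 of 10 members, Peg3 and Igf2r, and for 29.9% of all annotated genes (37.4% of protein-coding genes). The same 2 passed in B6, where 32.7% of all genes did, and in KI, where 31.0% did. Grb10 lay just under that limit in B6, at 49.9%. The window held no region in either strain for 1 member, Dlk1, against 38.0% of all genes and 26.9% of protein-coding genes. It held none in B6 for that member alone (44.7% of all genes, 33.2% of protein-coding genes). It held none in KI for 3 members, H19, Igf2 and Dlk1 (42.8% of all genes, 30.9% of protein-coding genes). No member differed between strains by 20 percentage points or more, a difference that 4.33% of all genes showed towards B6 and 2.74% towards KI. H19 lay just under that limit, with its window at 19.8% in B6 and 0 in KI. Over the gene span without the flanks, 2 members passed that limit towards B6, H19 at 79.0% against 0 and Igf2 at 21.8% against 0 (4.74% of all genes), and none towards KI (2.89%). In 2 members, H19 and Igf2, the window held a region in B6 and none in KI (4.79% of all genes), and no member had the opposite pattern (6.69% of all genes).

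**Figure D1:**
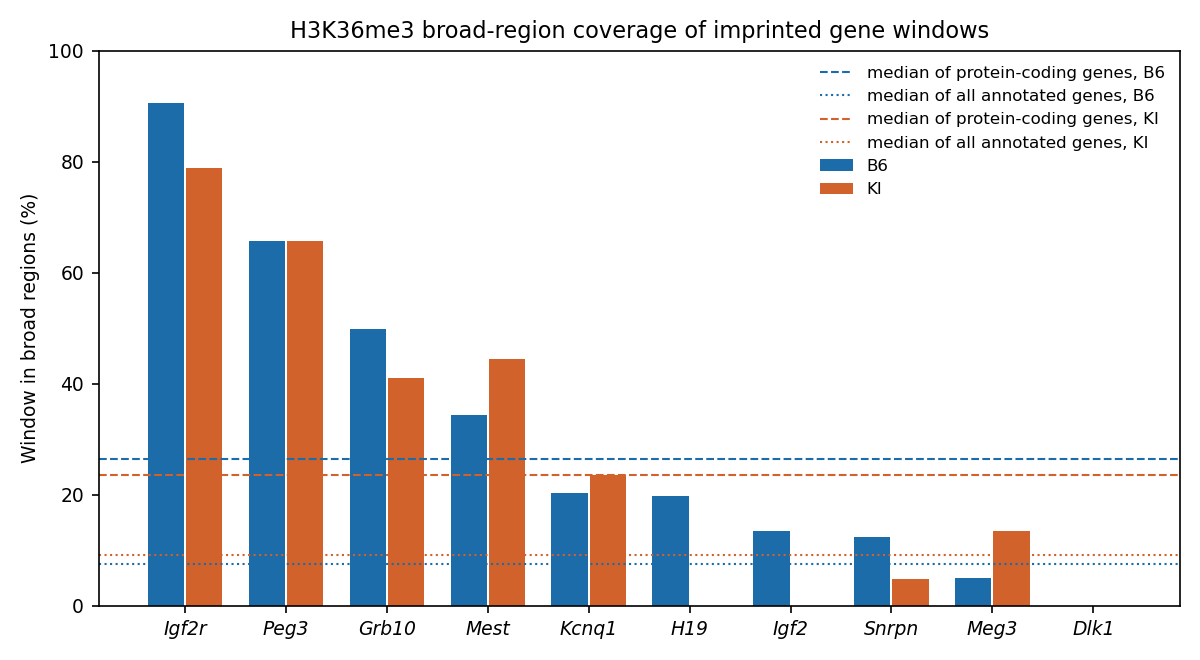
Share of each gene window (span plus 5 kb on either side, y axis in percent) in merged broad H3K36me3 regions, 1 bar per strain and gene, ordered by B6, with dashed and dotted lines at the medians of protein-coding and of all annotated genes. Igf2r and Peg3 stand above 50% in both strains, H19 and Igf2 have a bar in B6 only, and Dlk1 has none.

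The order of the members by coverage was nearly the same in both strains at its top. At its base, Dlk1 was at 0 in both, and H19 and Igf2 were at 0 in KI only. In B6 it ran Igf2r, Peg3, Grb10, Mest, Kcnq1, H19, Igf2, Snrpn, Meg3 and Dlk1. In KI, Mest (44.4%) stood above Grb10 (41.0%), and Meg3 (13.5%) above Snrpn (4.77%), H19 and Igf2. With 1 list a strain, no neighbours in these orders can be said to differ beyond their spread.

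Igf2r encodes the mannose 6-phosphate and IGF2 receptor, which carries IGF2 to lysosomes for breakdown, and in most mouse tissues it is expressed from the maternal copy. The gene lies on the minus strand at chr17:12875272-12962530, and the noncoding RNA Airn starts in one of its introns at position 12934177 and runs the other way to 13052988. Igf2r carried the widest region of any member. It spanned 63 kb in B6 and 61 kb in KI, and only 3.26% of the 39620 B6 regions and 1.94% of the 48863 KI regions were at least as wide. From the 3′ end of Igf2r to the Airn start, 58.905 kb, 99.7% of the bases were covered in B6 and 99.7% in KI.

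The wide region stopped at position 12934000 in both strains, 177 bp before the first base of Airn. The next region began 2.324 kb beyond that base in B6 and 1.824 kb beyond it in KI. The gap held the CpG island at chr17:12934128-12935543, the known control region of the cluster, and broad regions covered 0 of its 1416 bp in B6 and 0 in KI. An edge at the same position in both strains within 500 bp of the 5′ end was present at 5.15% of all annotated genes, and at no member's own 5′ end.

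The strains parted beyond the Airn start. In the 28.354 kb that Igf2r shares with Airn, regions covered 86.4% in B6 and 47.6% in KI. B6 had 1 region of 24.5 kb there, from 12936501 to 12961000. KI had 3 regions of 6.5, 2.5 and 4.5 kb, from 12936001 to 12957000. Over the 90.458 kb of Airn that lie beyond the Igf2r 5′ end, coverage was 16.6% in B6 and 4.42% in KI. With every base of another annotated gene left out, an alternative chosen after the data were seen, the Igf2r window was 98.6% covered in B6 and 98.9% in KI. The difference of 11.6 points between the strains therefore lay in the bases left out. These include the 28.354 kb shared with Airn, which are bases of Igf2r as well. Cut into 10 bins of equal length from 5′ to 3′, Igf2r had 82.5% of bin 1 covered in B6 and 36.6% in KI, and bins 5 to 10 were at 100% in both.

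Of the 6 refined peaks in the Igf2r window in each strain, 2 overlapped a peak of the other strain, and 1 of these pairs shared only 6 bp. The other pair shared 234 bp in an intron near the 5′ end, at chr17:12954055-12954288 on the Igf2r strand (minus). This stretch is shown because it is the closest match between the strains' narrow peaks in the gene: the KI peak lies within it except for 2 bp at one end. It holds no CpG, so no letter is in capitals.

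Igf2r shared stretch: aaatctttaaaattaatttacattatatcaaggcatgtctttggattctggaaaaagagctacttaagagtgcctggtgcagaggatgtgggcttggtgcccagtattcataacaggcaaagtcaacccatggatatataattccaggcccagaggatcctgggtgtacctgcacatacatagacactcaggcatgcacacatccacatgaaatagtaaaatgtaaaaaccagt

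Kcnq1 encodes a potassium channel subunit, and its cluster is silenced on the paternal chromosome through the antisense RNA Kcnq1ot1, which starts inside it. The gene lies on the plus strand at chr7:150293159-150612955, and the Kcnq1ot1 start shown above is at 150482452. Whole-gene coverage was low, 21.0% in B6 and 24.2% in KI, but it was gathered in 1 stretch. The 60 kb that follow the Kcnq1ot1 start in its own direction were 91.7% covered in B6 and 89.2% in KI. The 129.294 kb of Kcnq1 before that stretch were 4.64% covered in B6 and 14.7% in KI. The 130.503 kb on the other side of the start, up to the 3′ end of Kcnq1, were 4.60% covered in B6 and 3.83% in KI. The length of 60 kb was not taken from the annotation. The wide called regions ended 56.951 kb from the Kcnq1ot1 start in B6 and 55.451 kb in KI. The shares of the 60 kb and of the part before it therefore depend on where that bound was set.

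In B6 the stretch was a single region of 55 kb (chr7:150425501-150480500), a width reached by 4.14% of B6 regions. In KI it was split by a gap of 0.5 kb into regions of 24.5 kb (150427001 to 150451500) and 29 kb (150452001 to 150481000). These began 1.952 kb from the Kcnq1ot1 start in B6 and 1.452 kb from it in KI. The exons of Kcnq1 were little covered, 3.92% in B6 and 10.6% in KI, against 21.1% and 24.4% of its introns. The CpG island at the Kcnq1ot1 start, 1737 bp long, was not covered in B6 and was covered to 7.94% in KI.

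Outside the stretch the regions of the strains did not meet. B6 had 6 others in Kcnq1, each 2 kb wide, the smallest width in either list. KI had 7 others of 2 to 10 kb, the widest at chr7:150392501-150402500. None of the 11 refined peaks of B6 overlapped one of the 12 of KI.

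**Figure D2:**
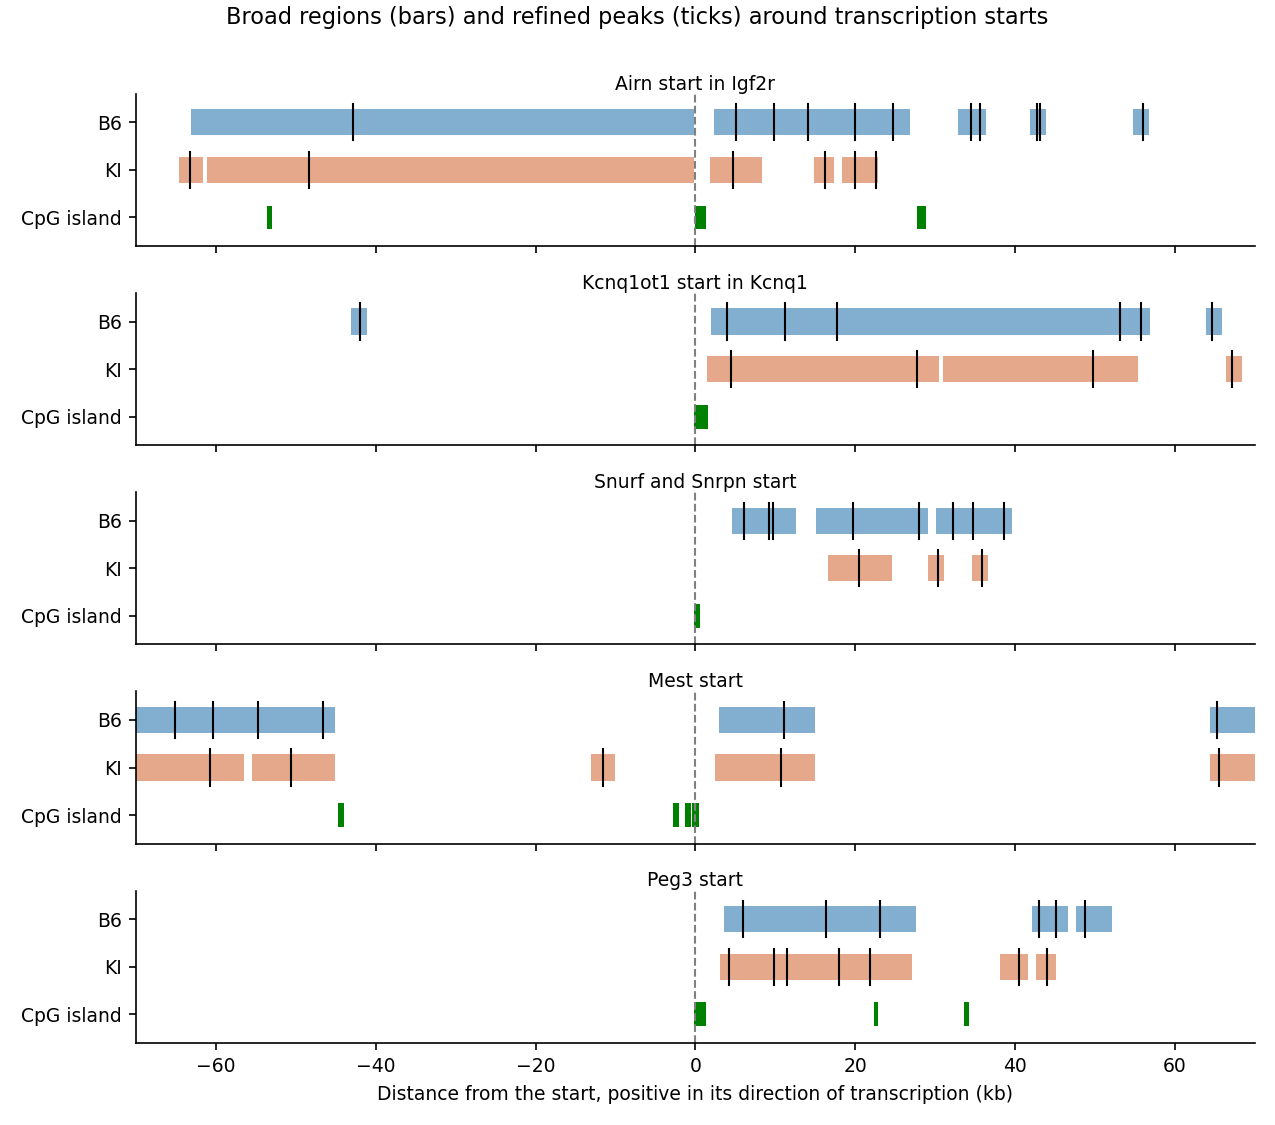
Broad regions (bars), refined peaks (ticks) and CpG islands of at least 500 bp (green) within 70 kb of the starts of Airn, Kcnq1ot1, Snurf and Snrpn, Mest and Peg3, with distance in kb on the x axis, positive in the direction of transcription from that start. No start lies in a bar, the regions at the Airn start end 0.177 kb before it in both strains, and the wide stretch in Kcnq1 begins 1.952 kb (B6) and 1.452 kb (KI) after the Kcnq1ot1 start.

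Peg3 encodes a zinc finger protein expressed from the paternal copy and lies on the minus strand at chr7:6656603-6683132. It was the member in which the strains were closest. Each strain had 1 region of 24 kb, at 6655501 to 6679500 in B6 and 6656001 to 6680000 in KI, so both edges were displaced by 0.5 kb, which is the spacing of the grid on which regions were called. The window was 65.7% covered in both. Of the bases covered in either strain, 95.9% were covered in both, the highest share of any member. The exons were 98.8% covered in both strains. The 5′ end was left free for 3.632 kb in B6 and 3.132 kb in KI, and that stretch holds most of the CpG island of the Peg3 promoter. The narrow peaks did not share this match: none of the 3 B6 peaks overlapped any of the 5 KI peaks, and the nearest pair lay 0.869 kb apart.

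Mest encodes a hydrolase-like protein of mesoderm and is expressed from the paternal copy. It lies on the plus strand at chr6:30673547-30698457, and its 3′ end overlaps by 0.904 kb that of Copg2, which runs the other way. The 3′ part was covered alike in both strains. From the most 3′ of its RefSeq starts to its 3′ end, 10.405 kb, coverage was 71.7% in B6 and 76.5% in KI, and a single region of 12 kb in B6 and 12.5 kb in KI ended at position 30703000 in both. That end lies inside Copg2, so part of this region falls in both genes or in Copg2 alone. Without the bases of other annotated genes, coverage of the Mest window was 22.5% instead of 34.4% in B6, and 34.7% instead of 44.4% in KI. A region of 3 kb near the annotated 5′ end (30675001 to 30678000) was present in KI and not in B6. The starts that carry the hexamer above lay 2.951 kb (B6) and 2.451 kb (KI) before the region.

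Snrpn encodes a core protein of spliceosomal particles and shares a start with Snurf. It lies on the minus strand at chr7:67127388-67285105, and most of this span is taken up by distant upstream starts. The 135.02 kb upstream of the shared start were not covered in either strain. The 22.698 kb from the shared start to the 3′ end were 68.8% covered in B6 and 26.9% in KI. B6 had regions of 14 kb (67121001 to 67135000) and 8 kb (67137501 to 67145500). KI had 1 region of 8 kb (67125501 to 67133500), which lay within the wider B6 region. The exons, which lie mostly near the 3′ end, were 84.2% covered in B6 and 67.0% in KI. Of its refined peaks, 4 were called in B6 and 1 in KI, and none were shared.

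Grb10 encodes an adaptor that dampens insulin and IGF receptor signalling and lies on the minus strand at chr11:11830511-11938686. Its coverage was broken into many pieces, with 8 regions in B6 and 10 in KI. The gene body was 54.1% covered in B6 and 41.6% in KI, and its exons 89.3% and 66.9%. The widest piece lay at the 3′ end in both strains, 18 kb in B6 and 18.5 kb in KI, and the last 10% of the gene was fully covered in both. Towards the 5′ end the strains differed in place. In B6 the regions nearest that end were at 11918501 to 11921000 and 11912001 to 11918000. KI had regions at 11905001 to 11908000, 11900001 to 11904000 and 11894001 to 11896000 where B6 had none. KI also had 1 region upstream of the gene, at 11940001 to 11942000. Both RefSeq starts of Grb10, at 11937423 and 11927974, lay outside the regions. In the direction of transcription the next region was 16.4 and 6.97 kb away in B6 and 20.9 and 11.5 kb away in KI. Behind the start at 11937423 the nearest region was 9.078 kb away in B6 and 2.578 kb away in KI.

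Grb10 also held the most refined peaks of any member, 16 in B6 and 13 in KI, and 3 pairs that overlapped. One shared stretch of 170 bp, at chr11:11854691-11854860 on the minus strand, is shown as the most CpG-rich of them, with its 3 CpG in capitals.

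Grb10 shared stretch: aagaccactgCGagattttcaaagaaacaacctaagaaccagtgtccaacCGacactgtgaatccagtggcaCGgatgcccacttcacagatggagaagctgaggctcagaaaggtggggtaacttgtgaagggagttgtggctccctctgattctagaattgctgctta

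**Figure D3:**
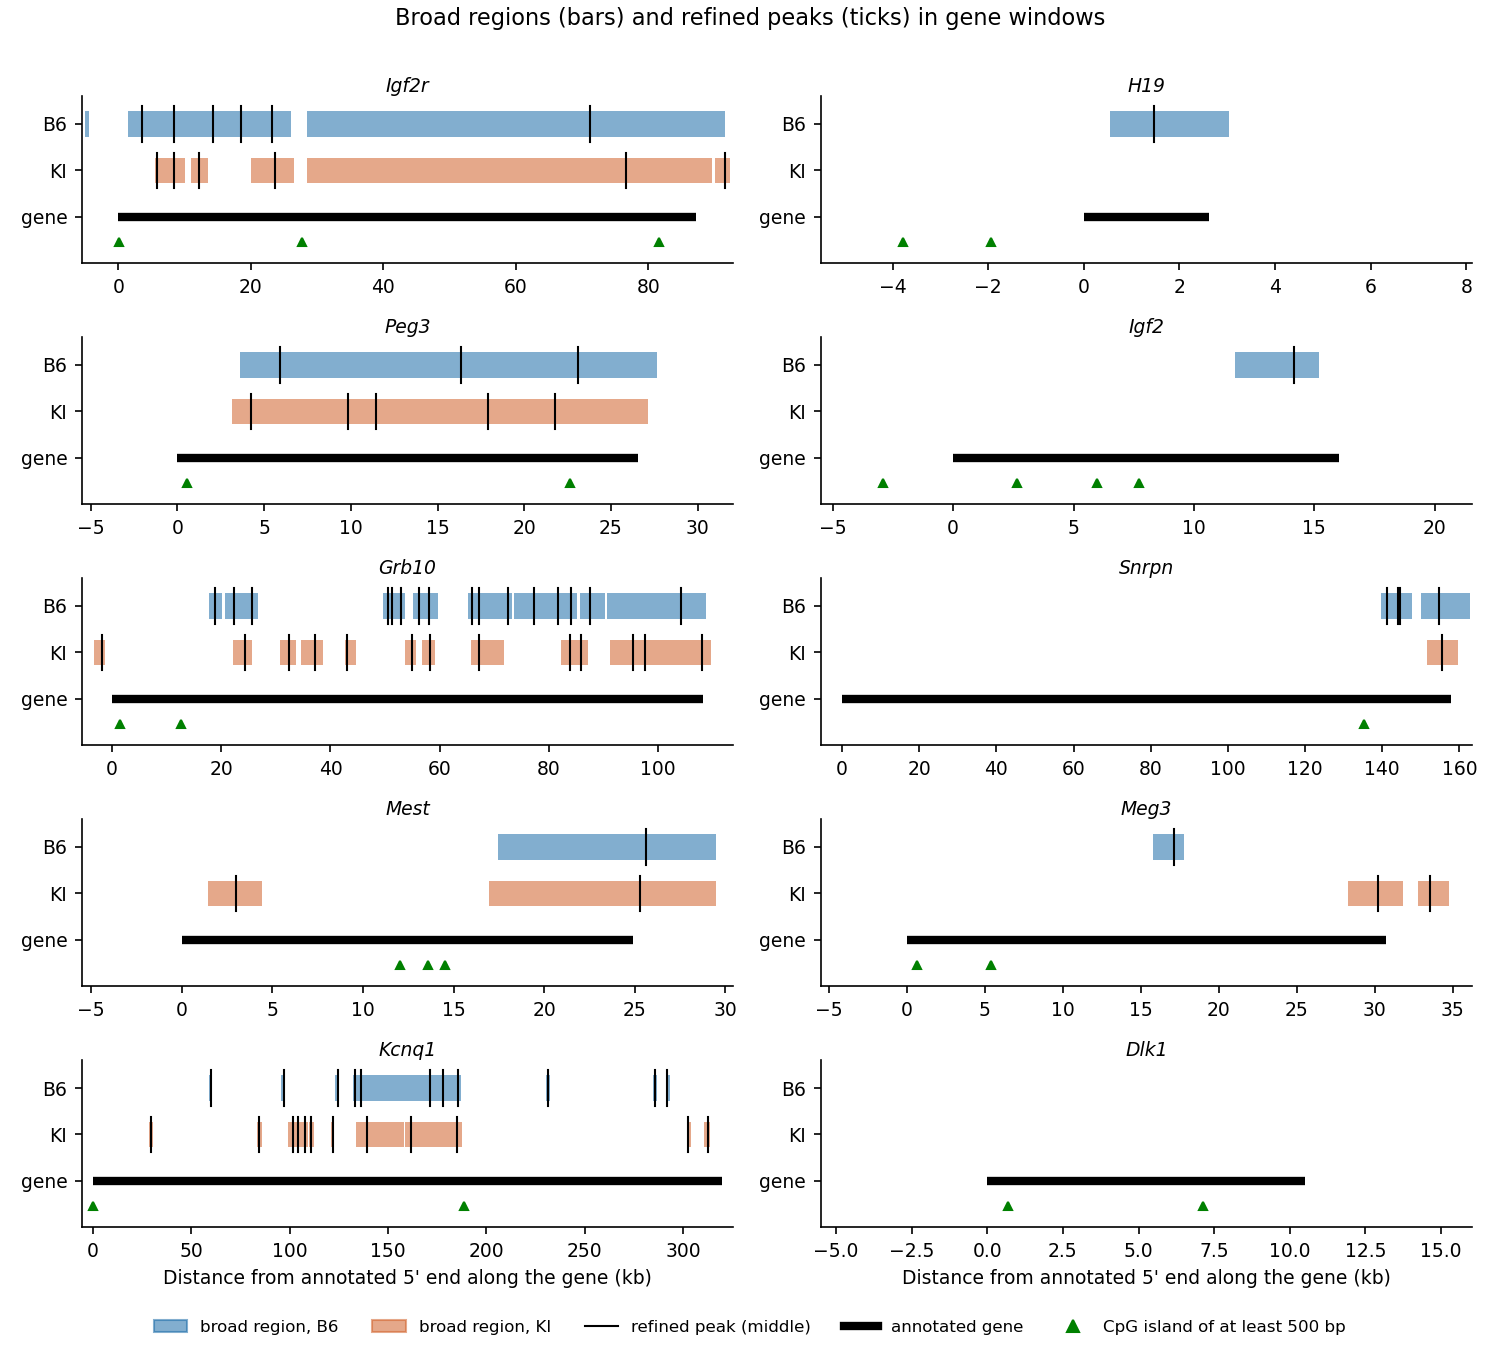
Maps of the 10 gene windows, with distance from the annotated 5′ end along the gene on the x axis in kb, broad regions as bars and refined-peak middles as ticks for each strain, the gene as a black line and CpG islands of at least 500 bp as triangles. Regions reach over most of Igf2r and Peg3, gather in the 3′ parts of Mest, Snrpn and Grb10, form 1 stretch inside Kcnq1, and are in B6 only at H19 and Igf2.

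H19 is a noncoding RNA made from the maternal copy, and Igf2, which lies upstream of it, encodes the growth factor IGF2 and is expressed from the paternal copy. H19 lies at chr7:149761434-149764048 and Igf2 at chr7:149836673-149852721, both on the minus strand. In B6, H19 had 1 region of 2.5 kb (149761001 to 149763500) that began 0.548 kb inside the 5′ end and covered 79.0% of the gene. In KI no broad region met the H19 window, and the nearest lay 5.934 kb from the gene. In B6, Igf2 had 1 region of 3.5 kb (149837501 to 149841000) near its 3′ end, over 21.8% of the gene and 47.4% of its exon bases. In KI the nearest region to Igf2 lay 13.2 kb away. Each of the B6 regions held 1 refined peak, of 383 bp in H19 and 670 bp in Igf2, both on exons.

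The middle 300 bases of the H19 peak are shown because it is the peak in the gene that was called in 1 strain alone (chr7:149762437-149762736, minus strand, CpG in capitals).

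H19 peak middle, B6: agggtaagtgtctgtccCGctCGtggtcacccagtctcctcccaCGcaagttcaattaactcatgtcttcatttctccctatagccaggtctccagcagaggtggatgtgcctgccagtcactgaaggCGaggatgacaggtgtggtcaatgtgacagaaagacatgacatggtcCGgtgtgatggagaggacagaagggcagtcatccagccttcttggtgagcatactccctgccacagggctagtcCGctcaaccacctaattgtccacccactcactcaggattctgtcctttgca

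Markers of Sertoli cells, the somatic cells that surround germ cells in the tubule, were also compared between the strains. Of 7 annotated markers, 5 had more coverage in B6, 1 had the same and 1 had less. Their median was 20.5% in B6 and 7.25% in KI, against 26.4% and 23.6% for protein-coding genes. The share of all genes with more coverage in B6 by any amount is not given here. Pooled coverage of all annotated genes was also higher in B6, at 34.1% against 31.8%. So were the medians of meiotic germ cell markers (88.8% against 87.9%) and of imprinted genes outside these clusters (44.5% against 33.7%). The median of the other genes of the clusters was lower in B6, at 3.19% against 15.9%. At least 20 points more coverage in B6 was found in 2 of the 7 Sertoli markers (4.33% of all genes). Wt1 was at 66.6% in B6 and 12.3% in KI, Inhbb at 23.8% and 0, and Cldn11 at 8.20% and 0. Gata4 was at 20.5% and 7.25%, Amh at 48.4% and 40.4%, and Fshr at 3.10% and 4.43%. Sox9 was at 16.1% in both. The part of these markers in the H19 and Igf2 difference was not tested. The H19 region is narrow: it is shorter than 3 kb, and with regions under 3 kb left out the H19 window was at 0 in B6 also.

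The 4 CTCF core sites lay 2.172, 2.627, 3.653 and 3.897 kb upstream of the H19 5′ end, and none lay in a broad region in either strain. The pattern searched was set as the core of the H19 control region, so matches at H19 follow from that choice. It had 53 matches in the genome, and 0.145% of gene windows held at least 1. No other member window held this exact pattern. The search cannot show whether those windows hold other CTCF sites.

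Meg3 is a noncoding RNA made from the maternal copy, and Dlk1, upstream of it, encodes a transmembrane ligand related to the Notch ligands and is expressed from the paternal copy. Meg3 lies at chr12:110779211-110809936 and Dlk1 at chr12:110691033-110701546, both on the plus strand. Regions took up 4.91% of the Meg3 window in B6 and 13.5% in KI, and no base was covered in both. Over the gene span without the flanks the shares were 6.51% and 7.93%. The B6 region was 2 kb wide in the middle of the gene (110795001 to 110797000), and with regions under 3 kb left out the B6 window was at 0. The KI regions, of 3.5 and 2 kb, lay at and beyond the 3′ end (110807501 to 110811000 and 110812001 to 110814000). Dlk1 had no region in its window in either strain, and the nearest lay 93.5 kb away in B6 and 49.955 kb away in KI.

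No annotated 5′ end of the 10 members lay in a broad region in either strain, where 11.2% of all annotated genes had theirs in one in B6 and 11.1% in KI, and 5.87% and 6.10% of protein-coding genes. The same held for the 20 distinct RefSeq start positions. Within the gene bodies, the first of 10 equal bins was at 0 in both strains except in Igf2r, in Mest in KI (41.6%) and in Kcnq1 in KI (6.25%). The mean over 13506 protein-coding genes of at least 10 kb went from 30.7% in the first bin to 57.9% in the last in B6, while the KI values were 28.8% and 55.8%. The last bin was at 100% in both strains in Igf2r, Peg3, Grb10 and Mest. It was at 84.1% in B6 and 38.8% in KI in Snrpn. Kcnq1 had its highest values in bins 5 and 6, at 86.2% and 85.8% in B6 and 79.9% and 87.4% in KI.

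**Figure D4:**
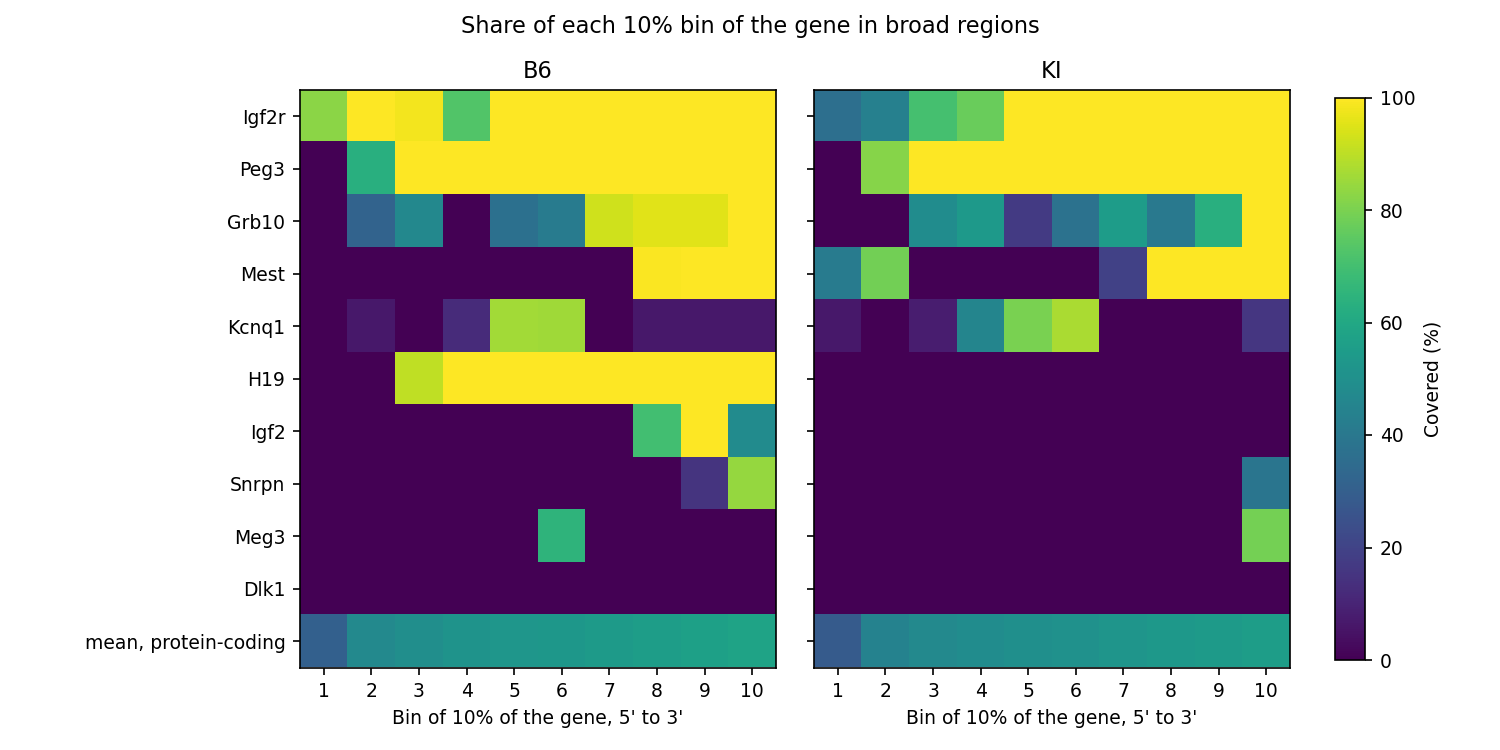
Share of each of 10 equal bins of the gene, from 5′ to 3′ on the x axis, in broad regions (colour, percent) for the 10 members and, in the last row, the mean of 13506 protein-coding genes of at least 10 kb, in B6 on the left and KI on the right. The first bin is empty in most members, the last is at 100% in Igf2r, Peg3, Grb10 and Mest in both strains, and Kcnq1 is highest in bins 5 and 6.

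CpG islands of at least 500 bp in the member windows were little covered. Regions took up 5.07% of the bases of the 23 islands in B6 and 5.66% in KI, where the windows as a whole were at 31.5% and 28.9%. In all gene windows together the shares for 21508 such islands were 10.6% and 10.2%, against 32.9% and 30.4% of all bases. In the members, 21 of the 23 islands had no covered base in B6 (91.3%, against 77.8% in all gene windows) and 20 in KI (87.0%, against 78.8%). With islands from 200 bp counted, the 94 islands in the member windows were 16.1% covered in B6 and 12.0% in KI, and those of all gene windows 24.4% and 23.0%.

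The ends of the regions were placed differently in the strains. Of 50 edges of B6 regions that met the windows, 2 were at exactly the position of a KI edge on the same side of a region, the end at the Airn start and the end in Copg2 beyond Mest. Within 500 bp of such a KI edge lay 10 of the 50 (20%), and within 1000 bp 12 (24%). Over all B6 regions the shares were 16.0% at the same position, 32.6% within 500 bp and 40.6% within 1000 bp. Of 25 B6 regions 12 met a KI region (48%, against 58.0% of all B6 regions), and of 30 KI regions 16 met a B6 region (53.3%, against 61.6% of all KI regions). Region widths had a median of 4.5 kb in B6 and 3.25 kb in KI, and of 3.5 kb over the whole list in each strain.

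Refined peaks are the narrow calls inside broad regions. A member window held at least 1 in 9 of 10 genes in B6 (47.1% of all genes) and 7 of 10 in KI (50.6% of all genes). There were 44 in B6 and 41 in KI, with median widths of 297.5 and 293 bp. Per 100 kb of window these were 4.98 and 4.64 peaks, and over all annotated genes 4.03 and 4.84. In B6, 6 of the 44 overlapped a KI peak (13.6%, Wilson 95% interval 6.40 to 26.7%), and in KI 6 of the 41 overlapped a B6 peak (14.6%, 6.88 to 28.4%). Over all refined peaks these shares were 17.6% and 14.2%. In B6, 25 peaks (56.8%, 42.2 to 70.3%) lay where KI had no region, against 43.8% of all B6 peaks. In KI, 17 peaks (41.5%, 27.8 to 56.6%) lay where B6 had no region, against 31.9% of all KI peaks. The intervals cover counting error only, and peaks of 1 region share their source.

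The shared peaks were in the windows of 3 members: 1 pair for Mest, 2 for Igf2r and 3 for Grb10. The Mest pair lay past the 3′ end of Mest, inside Copg2, and shared 45 bp. Most peaks were in introns, 34 in B6 and 29 in KI, with 9 and 8 on exons.

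The other genes of the same clusters, 41 of them annotated, had a median window coverage of 3.19% in B6 and 15.9% in KI. Of these, 19 were at 0 in B6 (44.7% of all genes) and 14 in KI (42.8% of all genes). Of the 41 annotated neighbours, 7 passed 50% in both strains (29.9% of all genes): Mrpl23, Nap1l4, Tssc4, Cd81, Ube3a, Copg2 and Tsga14. Ube3a, the ubiquitin ligase gene next to Snrpn, was at 90.3% in B6 and 89.8% in KI. Nap1l4, a histone chaperone gene near Kcnq1, was at 85.7% and 83.5%. In 13 neighbours the window held no region in either strain (38.0% of all genes). By at least 20 points, 1 neighbour was higher in B6 (4.33% of all genes) and 2 were higher in KI (2.74% of all genes). Atp10a, beyond Ube3a, was 41.7% covered in B6 and 19.6% in KI. Phlda2, near Kcnq1, was at 0 in B6 and 27.7% in KI, and Rtl1, a retrotransposon-derived gene of the Meg3 cluster, at 0 and 28.4%. Airn as a whole was at 34.4% in B6 and 17.3% in KI.

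Against these, the labelled cell type was checked by markers. All 10 markers of germ cells in meiotic prophase had at least 50% of the window covered in both strains (29.9% of all genes), with medians of 88.8% and 87.9%. Of 8 Leydig and peritubular markers, 4 had no region in either strain (38.0% of all genes). Their median was 0 in both, and Star alone passed 50%, at 100% in B6 and 94.1% in KI. A gene in a broad region is not shown to be expressed.

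**Figure D5:**
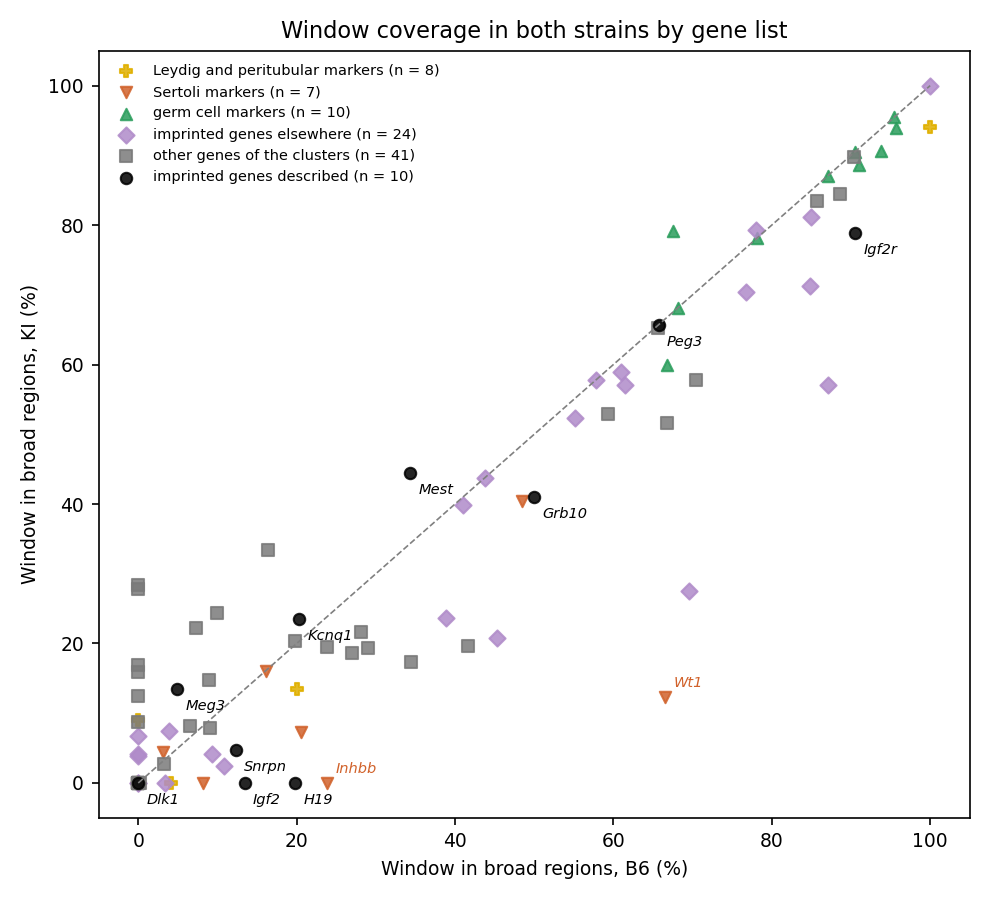
Window coverage in B6 (x axis, percent) against KI (y axis, percent), 1 point per gene, for the 10 imprinted genes (labelled), other genes of their clusters, imprinted genes elsewhere and markers of 3 cell types, with a dashed line of equal coverage. Most points lie near the line, the germ cell markers are at the upper right, and H19, Igf2, Wt1 and Inhbb lie below the line. Nap1l5, Impact, Ppp1r9a and Atp10a also lie below it, and Phlda2 and Rtl1 lie above it.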

How the data were processed

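H3K36me3 ChIP-seq was performed on MNase-digested chromatin of spermatocytes of B6 and KI mice at 14 days post-partum. Per the labels and the methods of the study, the authors kept reads with a single place in mm9 after alignment by BWA (version 1.2.3 in the submitters' processing notes), pooled the biological replicates within a strain and ran the peak caller ZINBA with that strain's input, labelled 15 days post-partum, as background. The antibody field of the labels reads H3K36me6, and the titles H3K36me3. The deposited values are positions of broad (unrefined) regions and narrow (refined) peaks, 54458 distinct broad regions and 58502 refined peaks in B6 and 66566 and 72692 in KI, with no counts, scores or depth behind a region. The methods give more aligned reads for KI than for B6, and depth affects which regions are called.

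Touching and overlapping broad regions were merged (39620 in B6, 445.865 Mb, and 48863 in KI, 425.426 Mb). Coverage is the percent of bases of a gene span plus 5 kb on either side, in the GENCODE annotation of mm9, that lie in them. Regions lie on a grid of 500 bp, which limits every edge. Refined peaks were shared where they overlapped by 1 bp or more. CpG islands were at least 200 bp long with at least 50% G+C and an observed over expected CpG ratio of at least 0.6. All 10 genes are named, with cluster neighbours and other imprinted genes covered to at least 50% in both strains or differing by at least 20 points, and Airn and Kcnq1ot1. Markers of cell types are given by their counts. All 7 annotated Sertoli markers are named in the text, and the markers named elsewhere were chosen after their values were seen. RefSeq promoters were placed on mm9 by exact match. H19 and Kcnq1 had no entry. The members and lists were chosen with earlier results of these data known. Alternatives changed the flank, limits, region width and merging, and the exclusion of other genes was added after the data were seen. Python 3.11.15, numpy 2.4.6, scipy 1.17.1 and matplotlib 3.10.9 were used, and the code was tested on simulated data.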

Additional observations from a re-analysis of the deposited data

How the results depend on the processing

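No paired analysis was possible because each strain has 1 list made from merged replicates, and none could be left out. Of 63 alternative values over all members, 50 changed little, 13 moved and 0 reversed, and of 100 values of single members 83 changed little, 17 moved and 0 reversed. The count of members covered to at least 50% became 4 in each strain at a limit of 25%, 1 in each at 75%, and 4 in B6 over the gene span alone. Pooled coverage was 29.2% in B6 and 26.7% in KI with a flank of 10 kb, and 27.5% and 25.8% with regions of at least 3000 bp only. The count of members at least 20 points higher in B6, with alternatives chosen after seeing the data, went from 0 to 2 over the gene span alone and to 1 without the bases of other annotated genes. Counting broad regions of the other strain as matches raised shared refined peaks to 19 in B6 and 24 in KI. Requiring overlap of 50% of the shorter peak left 4 in each strain. The limits and flanks change what is counted by construction. Positions without depth or height cannot show weak signal, so a gene at 0 is one with no called region.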

Other observations

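Imprinted genes outside these clusters, 24 of 25 listed with an annotation, had a median window coverage of 44.5% in B6 and 33.7% in KI. In both strains 10 of them were covered to at least 50% (29.9% of all genes): Nnat, Nespas, Zrsr1, Commd1, Inpp5f, Herc3, H13, Mcts2, Impact and Gatm. Several of these lie inside or beside another gene of the list, as Zrsr1 lies in an intron of Commd1, Mcts2 in one of H13 and Nap1l5 in one of Herc3, so their windows share regions. Coverage was at least 20 points higher in B6 in 3 of the 24 (4.33% of all genes). Nap1l5 was at 69.6% in B6 and 27.5% in KI, Ppp1r9a at 45.3% and 20.7%, and Impact at 87.1% and 57.0%. None of the 24 was higher in KI by that much (2.74% of all genes).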
